A study of Homo sapiens with 6 samples.

Results

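The SCAMP genes (SCAMP1, SCAMP2, SCAMP3, SCAMP4 and SCAMP5) encode the secretory carrier membrane proteins. They were examined in H661 cells, an established line of human large cell lung carcinoma, after knockdown of SALL4, a zinc finger transcription factor of embryonic stem cells. The genes were taken by name, and a gene entered when a probe set of the array carried its symbol alone, with the brightest such probe set standing for it. Under this rule 4 of the 5 SCAMP genes were found, among 18404 genes measured in the same way. SCAMP4 was the exception, because its probe set also carries the symbol ADAT3, and its values are given as those of a shared probe set. The family was selected on the normalized intensities of this same comparison, whose results were known, so the SCAMP values are a description and carry no test.

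The comparison set H661 cells transduced with a lentivirus carrying the SALL4 shRNA (SALL4-sh, 3 arrays) against H661 cells that received the scrambled shRNA (Scr-sh, 3 arrays). All cells were of this single line, and the knockdown rests on a single hairpin sequence as far as the methods describe it. The sample labels give RPMI medium with 10% serum, whereas the methods of the study give a higher share of serum for this line. Affymetrix arrays were hybridised with biotin-labelled material made from 5 µg of total RNA per sample. Nothing in the labels says whether the replicates were separate transductions, so the spread and the p-values measure differences between these 6 arrays, which may be technical.

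The targeted gene was lower in the knockdown. SALL4 had a normalized intensity of 30.7 ± 3.72 in SALL4-sh and 120.0 ± 13.8 in Scr-sh (SD, n = 3 each), a log2 difference of -1.97 (standard error 0.17, limma adjusted p = 0.000644). Intensities are on a linear scale on which every value below 8 had been set to 8, here called the floor. Between 38.8% and 40.4% of the probe sets of an array stood at it. Arrays of the same group correlated at 0.969 to 0.980 and arrays of different groups at 0.955 to 0.965, over all probe sets. The 8 epithelial and carcinoma markers, none of which stood at the floor on every array, summed to 1983 to 2359 in SALL4-sh and 2131 to 2307 in Scr-sh. Their log2 differences ran in both directions, with 0.43 for the adhesion molecule EPCAM, -0.44 for the keratin KRT18 and -0.35 for vimentin (VIM). These were named after their values were seen, and none was past the limma threshold. Only CDH1 (E-cadherin) passed it, as higher (log2 difference 0.91, limma adjusted p = 0.00965). Most of the sum lay in VIM (means of 1042 in SALL4-sh and 1336 in Scr-sh) and EPCAM (996 and 746). The group means of KRT8, KRT19, KRT7, NKX2-1 and CDH1 were between 9.01 and 16.9, near the floor. The 4 endothelial markers measured stood at the floor on every array, as did 3 of the 5 leukocyte markers, PTPRC (CD45) among them. The summed intensity of the 5 leukocyte markers was 40.7 to 42.0 in SALL4-sh and 40.0 to 42.0 in Scr-sh, where 5 genes at the floor would give 40.0. The 5 fibroblast markers summed to 147 to 175 in SALL4-sh and 154 to 168 in Scr-sh. In an extract of many cells, fewer cells that express a gene and less of its RNA per cell cannot be told apart.

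SCAMPs span the membrane several times and travel with the vesicles that recycle between the plasma membrane, endosomes and the trans-Golgi network. The longer members, SCAMP1, SCAMP2 and SCAMP3, carry repeats of the residues Asn-Pro-Phe at their amino terminus, a motif that EH-domain proteins of the endocytic machinery bind, whereas SCAMP4 and SCAMP5 lack these repeats. SCAMP5 is best known from neurons, where it sits on synaptic vesicles, and the other members are found in most tissues.

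For the pair of members with the largest differences in each direction, SCAMP1 and SCAMP2, the 250 bases before the annotated start of the gene are shown so that the regions can be read beside the values (RefSeq, GRCh38.p14; 5′ to 3′ along the gene's own strand). All 5 members had an entry in the RefSeq promoter table. Capitals mark the GC box, the letters GGGCGG on either strand, to which factors of the Sp family bind. The SCAMP1 sequence is chr5:78360367-78360616 on the plus strand and the SCAMP2 sequence is chr15:74873366-74873615 on the minus strand, both upstream of the first exon.
SCAMP1: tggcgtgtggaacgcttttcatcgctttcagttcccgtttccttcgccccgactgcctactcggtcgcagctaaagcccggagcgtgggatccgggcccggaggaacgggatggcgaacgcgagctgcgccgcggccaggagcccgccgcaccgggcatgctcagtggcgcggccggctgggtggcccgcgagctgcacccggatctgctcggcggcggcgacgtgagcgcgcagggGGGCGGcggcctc
SCAMP2: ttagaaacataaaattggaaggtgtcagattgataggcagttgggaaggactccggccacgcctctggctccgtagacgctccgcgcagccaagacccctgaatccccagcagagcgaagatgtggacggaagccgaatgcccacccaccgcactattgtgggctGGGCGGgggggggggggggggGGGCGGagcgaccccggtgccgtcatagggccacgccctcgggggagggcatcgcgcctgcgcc
The SCAMP1 region was 72.8% G and C with 37 CG dinucleotides and 1 GC box, and the SCAMP2 region was 66.4% G and C with 20 CG dinucleotides and 2 GC boxes. The corresponding regions of SCAMP3, SCAMP4 and SCAMP5 held 1, 3 and 1 GC boxes, with G and C at 58%, 72.8% and 71.2%. Over all 35116 promoter regions of the same length in the table the median was 58% G and C and 11 CG dinucleotides, and 42.6% held at least 1 GC box, so a GC box is a common feature. The A/T-rich run ATATT, also searched on both strands, was in 21.4% of all regions and in 0 of the 5 SCAMP regions, which says only that these letters are not in these windows.

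SCAMP1 stood apart from the rest of the family. SCAMP1, a carrier protein of recycling vesicles that binds the EH-domain proteins intersectin and gamma-synergin, had intensities of 301, 297 and 263 in SALL4-sh, against 86.2, 106 and 87.4 in Scr-sh. The groups did not overlap, and the lowest SALL4-sh array was 2.47 times the highest Scr-sh array. The means were 287 ± 21.3 in SALL4-sh and 93.3 ± 11.3 in Scr-sh (SD, n = 3 each). The ratio of geometric means was 3.08, a log2 difference of 1.62 with a standard error of 0.16 from the fit over all genes. Ordered by log2 difference from the largest increase downwards, SCAMP1 was at place 43 of the 13803 genes that passed the filter on dim genes.

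SCAMP2 differed in the other direction, with groups that overlapped. SCAMP2, which takes part in the opening of the fusion pore during granule exocytosis together with ARF6 and phospholipase D1, had 409.6, 343 and 412 in SALL4-sh, against 557, 382 and 596 in Scr-sh. The array with the lowest value was replicate 2 in both groups, and the Scr-sh value of 382 lay within the SALL4-sh range. The means were 388 ± 39.3 in SALL4-sh and 512 ± 114 in Scr-sh (SD, n = 3 each), a log2 difference of -0.38 (standard error 0.20). The coefficient of variation was 10.1% in SALL4-sh and 22.3% in Scr-sh.

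SCAMP3, a sorting protein of endosomes that is bound by the ubiquitin ligase NEDD4 and by TSG101 of the ESCRT machinery, had 77.4, 68.0 and 80.9 in SALL4-sh, against 68.1, 64.9 and 66.2 in Scr-sh. The groups met at their edges: SALL4-sh replicate 2 and Scr-sh replicate 1 had almost the same value, and the other SALL4-sh arrays lay above all Scr-sh arrays. The means were 75.5 ± 6.67 in SALL4-sh and 66.4 ± 1.59 in Scr-sh (SD, n = 3 each), a log2 difference of 0.18 (standard error 0.15).

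SCAMP5, the neuronal member, had 48.8, 29.7 and 31.8 in SALL4-sh, against 32.4, 38.8 and 35.3 in Scr-sh. SALL4-sh replicate 1 gave the highest value and the other SALL4-sh arrays the lowest values of the 6. The means were 36.8 ± 10.5 in SALL4-sh and 35.5 ± 3.20 in Scr-sh (SD, n = 3 each), and the coefficient of variation was 28.4% in SALL4-sh and 9.02% in Scr-sh. The log2 difference was 0.02 (standard error 0.21), and it lay between -0.01 and 0.00 when the arrays were rescaled, so no direction can be given for SCAMP5.

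The probe set shared by SCAMP4, the shortest of the family, and ADAT3, a subunit of a tRNA-editing deaminase, lay close to the floor of 8. Its values were 11.6, 10.1 and 10.2 in SALL4-sh, against 11.1, 8.41 and 10.3 in Scr-sh. The groups overlapped, and near the floor differences are compressed. The means were 10.6 ± 0.824 in SALL4-sh and 9.94 ± 1.40 in Scr-sh (SD, n = 3 each), a log2 difference of 0.10 (standard error 0.14 from its own 6 values). ADAT3 also has a probe set of its own, with 33.6 ± 3.09 in SALL4-sh and 31.1 ± 1.96 in Scr-sh (SD, n = 3 each, log2 difference 0.11, limma adjusted p = 0.734).

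**Figure D1:**
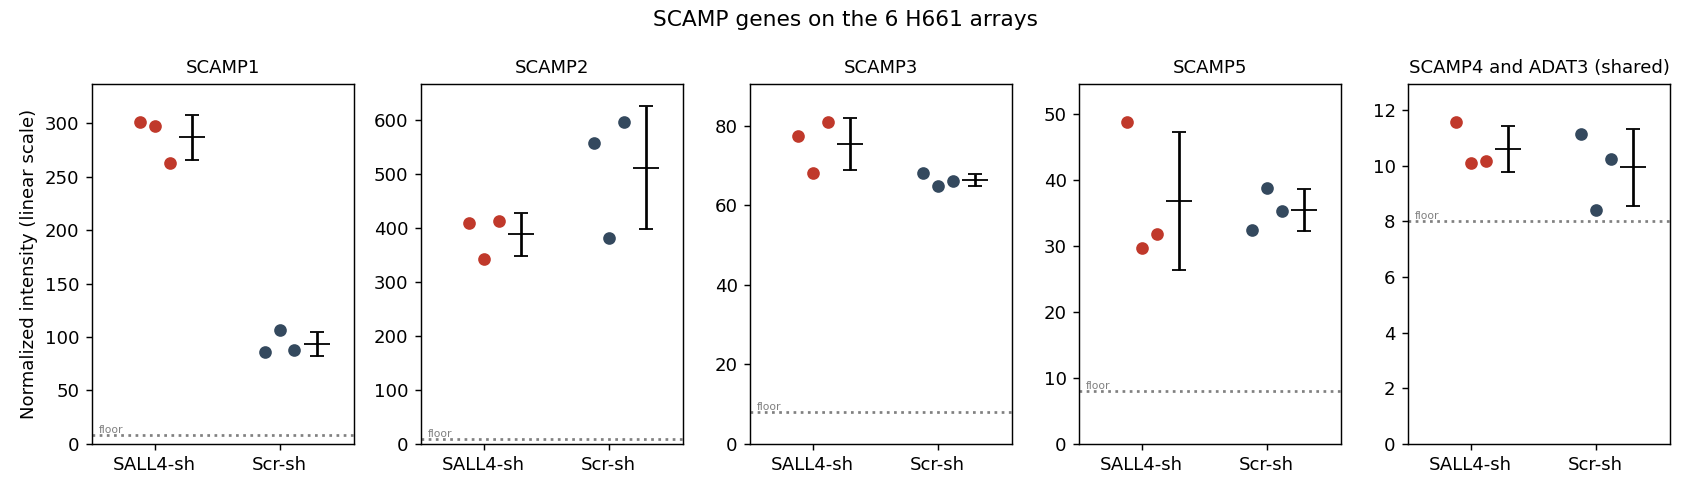
Normalized intensity (linear scale from 0, a separate scale for each probe set) of the SCAMP genes in the 3 SALL4-sh arrays (left, red) and the 3 Scr-sh arrays (right, dark), with the mean and SD as black bars and the floor of 8 as a dotted line. The SCAMP1 arrays fall into separate groups, at 263 to 301 in SALL4-sh and 86.2 to 106 in Scr-sh, and the groups of every other probe set overlap.

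The SCAMP genes thus differed in the size of their change, with SCAMP1 far from the others. All 4 members with a probe set of their own passed the filter on dim genes, which kept the 13803 genes above the 25th percentile of mean log2 intensity. Of them 1 (SCAMP1) lay past the threshold of the limma fit (adjusted p under 0.05) as higher in SALL4-sh, which is no test of a gene selected on this comparison. That call was made for 821 genes or 5.95% of all genes tested. As lower, 0 members were called, against 764 genes or 5.54%. Without overlap of the groups, 1 of 4 was higher, against 15.7% of all genes tested. Because the family was selected with this contrast known, nothing is read from these counts. The median log2 difference was 0.10 over the 4 members and 0.02 over all genes tested.

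Leaving out each array in turn gave log2 differences of 1.57 to 1.72 for SCAMP1, -0.58 to -0.25 for SCAMP2, 0.13 to 0.25 for SCAMP3 and -0.20 to 0.15 for SCAMP5. The sign of SCAMP5 depended on which array was left out. When the arrays were rescaled by median centring, cyclic loess or a further quantile normalization, SCAMP1 lay between 1.53 and 1.61, SCAMP2 between -0.49 and -0.39 and SCAMP3 between 0.12 and 0.16.

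**Figure D2:**
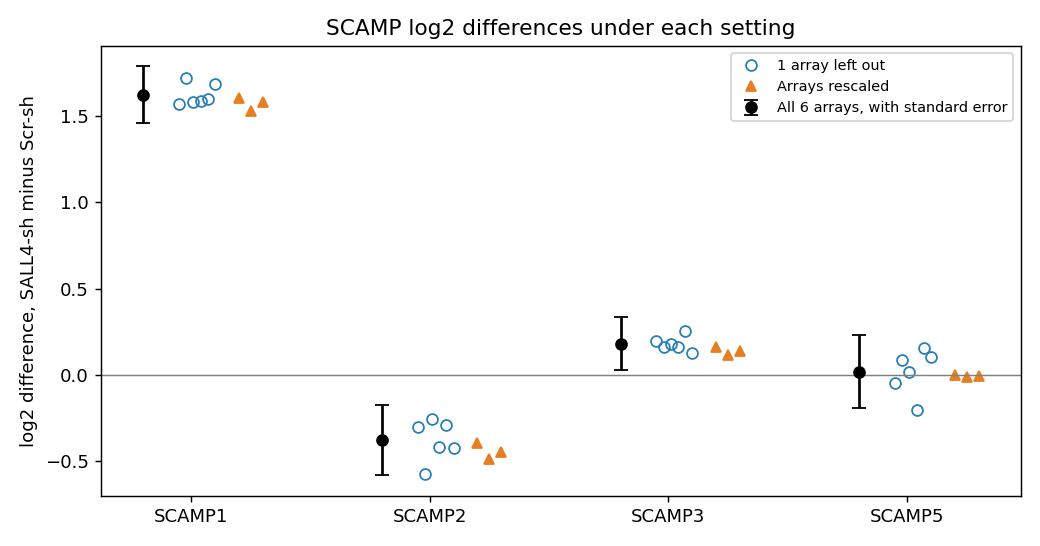
Log2 difference (SALL4-sh minus Scr-sh, vertical axis) of the 4 SCAMP genes with a probe set of their own, with all 6 arrays and the standard error (black), with each array left out in turn (blue circles) and after each rescaling of the arrays (orange triangles). SCAMP1 stays between 1.53 and 1.72, SCAMP2 below 0 and SCAMP3 above 0, and SCAMP5 falls on both sides of 0 when an array is left out and, by up to 0.01, when the arrays are rescaled.

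The genes whose log2 values ran most like those of SCAMP1 over the 6 arrays were NONO, an RNA-binding protein of nuclear paraspeckles, COQ10B, a coenzyme Q-binding protein of mitochondria, CTDSPL2, a phosphatase, MGRN1, a ubiquitin ligase, and ADGRV1, an adhesion receptor. Pearson's r was 0.998 for NONO and 0.997 for each of the others, among the 12056 genes with no value at the floor. With 6 arrays in 2 groups, such a value largely restates the difference between the groups, and it says little of its size. With the group means taken out, r was 0.994 for NONO and between 0.850 and 0.926 for the others. As these genes were picked for the highest r over the same arrays, nothing is read from those values. NONO had a log2 difference of 0.22, with 353 ± 5.56 in SALL4-sh and 304 ± 6.37 in Scr-sh, whereas COQ10B had 1.47, with 356 ± 6.97 in SALL4-sh and 129 ± 13.6 in Scr-sh (SD, n = 3 each). The log2 differences of CTDSPL2, ADGRV1 and MGRN1 were 1.24, 0.92 and 0.50.

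The genes that bind SCAMPs or that carry EH domains were not called changed. Of 19 such genes 15 were tested, and 0 passed the limma threshold in either direction. Over all genes tested 5.95% were higher and 5.54% lower, so 0 of 15 genes is near those shares. In the limma fit 2 had an unadjusted p under 0.05, against 3412 of all 13803 genes tested. A gene-by-gene one-factor variance test, the kind of test the study names for these arrays, also called 0 of the 15. It borrows no spread from other genes, and over all genes tested it called 0.819% higher and 1.04% lower. PLD1, the phospholipase D that acts with SCAMP2, had 55.3, 76.2 and 88.4 in SALL4-sh, against 101, 144 and 98.4 in Scr-sh (log2 difference -0.65, standard error 0.23, limma adjusted p = 0.104). SYNRG, which encodes gamma-synergin, had 118, 112 and 86.5 in SALL4-sh, against 80.4, 87.3 and 68.0 in Scr-sh (log2 difference 0.42, standard error 0.19, limma adjusted p = 0.196). The PLD1 groups did not overlap, and the lowest SYNRG value in SALL4-sh lay within the Scr-sh range. The intersectins ITSN1 and ITSN2, the EH-domain protein EPS15 and NEDD4, chosen for their roles after their values were seen, had log2 differences of -0.02, 0.05, 0.09 and 0.38.

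The physins and gyrins are other multi-spanning proteins of small vesicles, with synaptophysin as the best known. Of 8 measured genes 7 were tested, and 0 were called by limma, where 5.95% of all genes tested were higher and 5.54% lower. The gene-by-gene test called 0, and 1 had an unadjusted limma p under 0.05, against 3412 of all 13803 genes tested. That 1 gene was SYPL1, the synaptophysin-like protein of non-neuronal cells, with 158, 162 and 161 in SALL4-sh, against 217, 252 and 226 in Scr-sh. Its groups did not overlap (log2 difference -0.53, standard error 0.15, limma adjusted p = 0.0539), and it passed the threshold as lower without the filter, after each of the 3 rescalings and with trended, robust moderation. SYNGR3, a synaptogyrin, had a log2 difference of 0.34 (limma adjusted p = 0.371).

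Genes of the recycling endosome and the trans-Golgi network, the compartments through which SCAMPs pass, were called in both directions by limma with the filter, whereas the gene-by-gene test and limma without the filter called 0 of them. In SALL4-sh 2 of the 31 tested genes were higher (6.45%, against 5.95% of all genes tested) and 5 were lower (16.1%, against 5.54%). At an unadjusted p under 0.05 there were 3 higher and 9 lower, against 1875 and 1537 of all 13803 genes tested. RAB11FIP4, an effector of the recycling GTPase RAB11, had 67.8, 54.0 and 90.1 in SALL4-sh, against 36.4, 31.5 and 26.8 in Scr-sh (log2 difference 1.14, standard error 0.22, limma adjusted p = 0.0117). M6PR, the cation-dependent mannose 6-phosphate receptor that carries lysosomal enzymes from the Golgi, had 225, 266 and 154 in SALL4-sh, against 373, 493 and 492 in Scr-sh (log2 difference -1.10, standard error 0.23, limma adjusted p = 0.0160). In both genes every SALL4-sh array lay outside the Scr-sh range. RAB14, a GTPase between endosomes and the Golgi, had 46.1, 35.3 and 45.1 in SALL4-sh, against 85.9, 63.7 and 82.7 in Scr-sh (log2 difference -0.87, limma adjusted p = 0.0185). AP1M1, the medium subunit of the AP-1 clathrin adaptor, had 8.42, 9.67 and 10.7 in SALL4-sh, close to the floor, against 18.4, 15.4 and 15.9 in Scr-sh (log2 difference -0.79, limma adjusted p = 0.0171). The other 3 called genes, named after their values were seen, were AP1G1, the large gamma subunit of AP-1, which was higher with a log2 difference of 0.68, and SNX1, a sorting nexin of the retromer, and RAB11B, which were lower with -1.02 and -0.80. The AP1G1 call was lost after cyclic loess and whenever an array other than Scr-sh replicate 3 was left out. The AP1M1 call was lost without Scr-sh replicate 1, Scr-sh replicate 3, SALL4-sh replicate 1 or SALL4-sh replicate 2. AP1M1 was also absent with the 50th percentile filter, which leaves out more dim genes, so that absence is not read as a failed test. With 1 array left out, the RAB11B call was kept only without SALL4-sh replicate 3. Those of RAB14 and SNX1 were kept only without Scr-sh replicate 2 or SALL4-sh replicate 1. The M6PR call was lost without Scr-sh replicate 3 or SALL4-sh replicate 3.

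The SNAREs of secretory and recycling vesicles, which drive membrane fusion, and the exocyst, which tethers vesicles to the plasma membrane, also had calls in both directions. With the filter 2 of 30 tested genes were higher (6.67%, against 5.95% of all genes tested) and 5 were lower (16.7%, against 5.54%). At an unadjusted p under 0.05 there were 5 higher and 7 lower, against 1875 and 1537 of all 13803 genes tested. VAMP2 (synaptobrevin), the vesicle SNARE of regulated secretion, had 31.9, 43.8 and 40.5 in SALL4-sh, against 90.5, 103 and 127 in Scr-sh (log2 difference -1.46, standard error 0.20, limma adjusted p = 0.00265). SNAP23, a plasma membrane SNARE of non-neuronal cells, had 52.0, 36.1 and 44.7 in SALL4-sh, against 80.6, 87.6 and 110.1 in Scr-sh (log2 difference -1.07, standard error 0.20, limma adjusted p = 0.00998). STX4, a plasma membrane syntaxin that pairs with SNAP23, went the other way, with 102, 90.2 and 104 in SALL4-sh, against 46.7, 37.2 and 50.1 in Scr-sh (log2 difference 1.16, standard error 0.17, limma adjusted p = 0.00416). None of these groups overlapped. The exocyst subunit EXOC5 had 59.7, 72.0 and 97.5 in SALL4-sh, against 189, 209 and 185 in Scr-sh (log2 difference -1.38, standard error 0.20, limma adjusted p = 0.00387). Of the other called genes, named after their values were seen, EXOC7, another exocyst subunit, was higher with a log2 difference of 0.79. VAMP3, the SNARE of recycling endosomes, and NAPA, which helps to take SNARE complexes apart, were lower with -0.68 and -0.86. With 1 array left out, the VAMP3 and NAPA calls were kept only without Scr-sh replicate 2. NAPA was also absent with the 50th percentile filter, which leaves out more dim genes, so that absence is not read as a failed test. The EXOC7 call was lost without SALL4-sh replicate 1. In this list the gene-by-gene test called only EXOC7, and limma without the filter only EXOC7, STX4 and VAMP2.

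Over these lists together 83 genes were tested, of which 4 were higher (4.82%), 10 were lower (12.05%) and 69 did not pass. The median log2 difference was -0.04, against 0.02 over all genes tested, of which 5.95% were higher and 5.54% lower. SCAMP1, with 1.62, lay above the largest increase among these genes, that of STX4 with 1.16. As the SCAMP family was selected with this contrast known, nothing is read from that order. The counts depended on the test. The gene-by-gene test called 1 of the 83 higher (EXOC7) and 0 lower, with 7 and 16 at an unadjusted p under 0.05. Limma without the filter called 2 higher (EXOC7 and STX4) and 2 lower (VAMP2 and SYPL1), of which SYPL1 was not called with the filter. Leaving out SALL4-sh replicate 1 gave 2 higher genes, and leaving out any other array gave 3 to 5. Leaving out Scr-sh replicate 2 gave 10 lower genes, and leaving out any other array gave 3 to 6, with 3 without Scr-sh replicate 3. VAMP2, EXOC5, SNAP23, STX4 and RAB11FIP4 were called whichever array was left out. The gene-by-gene test called none of them, however, and limma without the filter called only VAMP2 and STX4 of them.

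**Figure D3:**
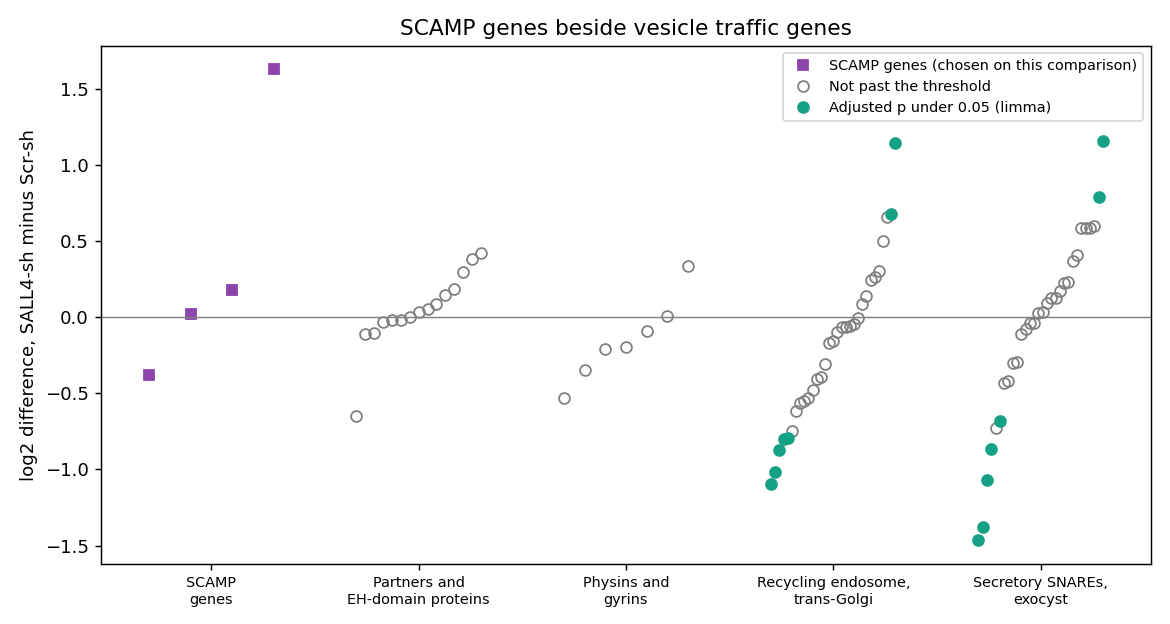
Log2 difference (SALL4-sh minus Scr-sh, vertical axis) of the SCAMP genes (squares) and of the tested genes of each vesicle traffic list (circles, in order of the difference, filled where the limma adjusted p was under 0.05). The filled circles lie only in the recycling endosome and trans-Golgi list and in the SNARE and exocyst list, on both sides of 0. The highest point is SCAMP1 at 1.62, of a family selected with this comparison known.

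Because SCAMP5 and VAMP2 are also genes of neurosecretory cells, neuroendocrine markers were read on the same arrays. Of 11 measured markers 4 stood at the floor on every array, the granule proteins CHGA, SCG2 and SCG3 among them. Of the 7 tested, 0 were higher and 2 were lower, where 5.95% and 5.54% of all genes tested were, and 0 were higher and 3 lower at an unadjusted p under 0.05. STMN2, a microtubule regulator of neurons, had 8.92, 8 and 8 in SALL4-sh, the last values being at the floor, against 13.8, 17.0 and 12.4 in Scr-sh (limma adjusted p = 0.0205). SYT1, the calcium sensor of synaptic vesicles, had 58.5, 42.1 and 30.2 in SALL4-sh, against 67.9, 92.8 and 77.0 in Scr-sh (log2 difference -0.90, limma adjusted p = 0.0462). The markers summed to 459.8 to 522 in SALL4-sh and 555 to 632 in Scr-sh, and their part in the SCAMP and SNARE values was not tested. Most of the difference between these sums lay in UCHL1, a deubiquitinating enzyme of neurons named after its values were seen, with 262 ± 7.23 in SALL4-sh and 356 ± 40.8 in Scr-sh (SD, n = 3 each, limma adjusted p = 0.123). ENO2, CHGB and INSM1, named in the same way, had log2 differences of 0.27, 0.21 and 0.05, none past the threshold. Of the 8 epithelial and carcinoma markers only CDH1 (E-cadherin) was called, with 17.2, 16.1 and 17.3 in SALL4-sh, against 10.5, 8 and 8.68 in Scr-sh, of which 1 stood at the floor (log2 difference 0.91, limma adjusted p = 0.00965). Whether the STMN2, SYT1 and CDH1 calls hold under the other tests and filters, or with an array left out, was not examined.

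None of the genes nearest to SCAMP1 on its chromosome was called higher. For each SCAMP gene the 2 nearest measured genes on each side in the RefSeq gene table were taken, 20 in all, of which 18 were tested, 0 were called higher and 1 was called lower, or 5.56% against 5.54% of all genes tested. At an unadjusted p under 0.05 there were 2 higher and 2 lower, against 1875 and 1537 of all 13803 genes tested. The gene-by-gene test called 0 of these neighbours. Beside SCAMP1 on chromosome 5, AP3B1, a subunit of the AP-3 adaptor of lysosome-related organelles, had 98.8 ± 4.44 in SALL4-sh and 88.9 ± 12.2 in Scr-sh (log2 difference 0.16, limma adjusted p = 0.636). TBCA, a tubulin folding cofactor, and ARSB, a lysosomal sulfatase, had log2 differences of 0.05 and -0.04. LHFPL2, a tetraspan membrane protein next to SCAMP1, was lower, with 10.5 ± 2.69 in SALL4-sh and 19.9 ± 4.16 in Scr-sh (SD, n = 3 each, log2 difference -0.93, standard error 0.24, limma adjusted p = 0.0344). One SALL4-sh value of LHFPL2 stood at the floor, so the size of its difference is limited by the floor. Its call was lost without Scr-sh replicate 1, Scr-sh replicate 2, SALL4-sh replicate 2 or SALL4-sh replicate 3.

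Around SCAMP3 on chromosome 1, CLK2, a kinase of splicing factors, and ENTREP3 had log2 differences of 0.77 and 0.72 (limma adjusted p = 0.0569 and 0.0757). Around SCAMP2 on chromosome 15, MPI, which makes mannose 6-phosphate, had -0.77 (limma adjusted p = 0.0723), ULK3 had -0.23, and CPLX3 and FAM219B were too dim to be tested. The groups of CLK2, ENTREP3 and MPI did not overlap, although none of these genes passed the threshold. MTX1 and HCN3 beside SCAMP3 had -0.23 and -0.07. The SCAMP4 neighbours ABHD17A, CSNK1G2 and CSNK1G2-AS1 lay between -0.05 and 0.34, and the SCAMP5 neighbours COX5A, RPP25, PPCDC and C15orf39 between -0.10 and 0.20.

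**Figure D4:**
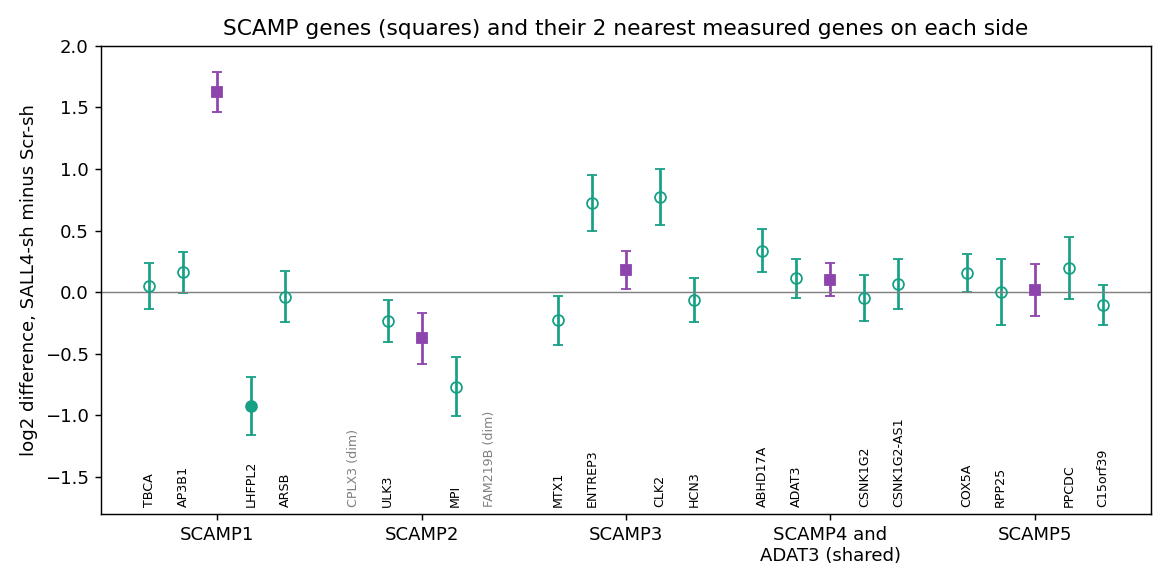
Log2 difference (SALL4-sh minus Scr-sh, with standard error, vertical axis) of each SCAMP gene (square) and its 2 nearest measured genes on each side (circles, filled where the limma adjusted p was under 0.05), placed by order along the chromosome and not by distance. SCAMP1 stands at 1.62 between AP3B1 at 0.16 and LHFPL2 at -0.93, the only filled circle, and SCAMP5, whose sign changed when the arrays were rescaled, lies at 0.02.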

How the data were processed

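Gene expression was measured on 6 arrays, 3 SALL4-sh and 3 Scr-sh, and the groups were taken from the sample titles. The authors deposited normalized intensity values on a linear scale for 32321 probe sets, with every value below 8 set to 8. RMA is the tool listed in the submitters' processing notes (version: not given in the sources used). Of the probe sets, 19158 carried 1 gene symbol and gave 18404 genes, each represented by its brightest probe set.

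The log2 of the deposited intensity was fitted with lmFit and eBayes (limma 3.58.1, R 4.3.3, Benjamini-Hochberg over all genes tested, threshold 0.05) after genes at or below the 25th percentile of the mean were left out. The study names a one-way ANOVA for these arrays, and earlier work on these data used limma without a filter. Both are alternatives here and call fewer genes. The filter was preferred because 3893 genes stood at the floor on all arrays with no spread, a choice made with the earlier results known. The SCAMP genes, the gene lists and the rule for naming genes were likewise chosen with earlier results of these data known.

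The genes named were the SCAMP genes, SALL4, per list up to 4 called genes, those of smallest adjusted p (otherwise the 2 with the smallest), the neighbours of the SCAMP genes and the 5 genes most like SCAMP1. Alternatives were 3 rescalings, other filters, trended and robust moderation, the one-way ANOVA, the mean of probe sets, a replicate block, leaving out genes with any value at the floor, and leaving out each array. After rescaling, the highest minimum of any array became the new floor. The limma fit was tested on simulated data. Arrays give no sequencing depth, so precision depends on their number. No 2 arrays were identical. Promoter sequences are from RefSeq (GRCh38.p14). Since the deposited values name no genome build, neighbours are given by order only. The motifs were chosen after the values were seen.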

Additional observations from a re-analysis of the deposited data

How the results depend on the processing

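Each rescaling moved the log2 differences of the SCAMP genes by less than 1 SD between replicates. The mean of probe sets and the replicate block cannot move them, so these settings say nothing about their stability. Leaving out 1 of 3 arrays cannot move them by that much, so there the measure of 1 SD says nothing, and only ranges and signs are read. SCAMP5 changed sign under both rescaling and leaving out an array, and the probe set shared by SCAMP4 and ADAT3 changed sign only when an array was left out. SALL4 stayed lower and past the threshold under every alternative. The counts of called genes were less stable. Without the filter limma called 218 genes higher and 244 lower, with 2 traffic genes higher, 2 lower and 0 neighbours (4 at an unadjusted p under 0.05). The filter on 13803 genes also changes the spread that limma borrows. The one-way ANOVA called 113 genes higher and 144 lower, with 1 traffic gene higher, 0 lower (16 at an unadjusted p under 0.05) and 0 neighbours (2 at an unadjusted p under 0.05). It borrows no spread between genes. Leaving out each array gave 321 to 1118 genes higher, 383 to 831 lower, 2 to 5 traffic genes higher, 3 to 10 lower and 0 to 1 neighbours, and the neighbour called was MPI in place of LHFPL2 without Scr-sh replicate 2. In the 50th percentile filter and without genes at the floor, the neighbour called was CLK2. LHFPL2, with 1 value at the floor, was not tested without genes at the floor. The 50th percentile filter leaves out more dim genes, so the absence of LHFPL2 there is not read as a failed test. Same-numbered arrays deviated from their group means with correlations of 0.14, 0.11 and -0.00089, so the numbers were not taken to pair the arrays. With the replicate block 903 genes were higher and 803 lower, and 2 neighbours were called, CLK2 and LHFPL2. The floor limits any difference between weak signals, as for SCAMP4, LHFPL2 and AP1M1.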
